A study of Mus musculus with 6 samples.

Results

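The MHC class II antigen presentation genes of the mouse were followed across bone marrow libraries with overexpressed or endogenous miR-125a. They are 10 of the 55450 genes in the count table, taken by symbol: the alpha chain gene H2-Aa, the beta chain genes H2-Ab1 and H2-Eb1, the invariant chain gene Cd74, the peptide exchange genes H2-DMa, H2-DMb1, H2-DMb2, H2-Oa and H2-Ob, and the transactivator gene Ciita. The set was chosen by the read counts of the same libraries, since earlier results of these data had shown H2-Aa higher and H2-Ab1 and H2-Eb1 lower with overexpressed miR-125a. The values of these 10 genes are therefore given as a description with no p-value, and where calls over the whole table are counted, nothing is read from the calls of these genes. All 10 were found. Of these, 6 passed the filter on low counts and 4 (H2-DMb1, H2-DMb2, H2-Oa and H2-Ob) did not.

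Mouse haematopoietic stem cells (LSK/SLAM) that carried extra miR-125a, a microRNA, were given to irradiated recipients, and 12 weeks later 2000 marrow cells per library were sorted for RNA sequencing as lineage-negative and Sca-1-positive, a fraction meant to hold stem cells and early progenitors. Both groups came from C57BL6/SJL mice, had the same time after transplantation and the same sort, and differ in the labels by genotype alone, which is overexpression of miR-125a or endogenous expression of miR-125a. The labels name 3 libraries per group, of which overexpressed replicates 2 and 3 and endogenous replicates 1 and 3 were analysed, so n = 2 per group, and the other 2 libraries were not analysed here. The titles of the endogenous libraries begin with EV, which the labels do not spell out. The labels describe no vector, promoter or donor marker, and do not tell whether each library came from its own recipient. Spreads and p-values therefore measure only the differences between these libraries, which may be technical.

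MHC class II molecules are pairs of an alpha and a beta chain that show peptides from endosomes and lysosomes to CD4+ T cells, and they are made mainly by B cells, dendritic cells and macrophages. New pairs assemble in the endoplasmic reticulum around the invariant chain, which blocks the peptide groove and is later cut away by lysosomal proteases such as cathepsin S. H2-DM (H2-DMa with H2-DMb1 or H2-DMb2) then loads peptide in exchange for the last invariant chain fragment, H2-O (H2-Oa with H2-Ob) restrains H2-DM, and Ciita is the coactivator that switches the gene set on through factors bound at paired X and Y boxes of the promoters.

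The sequences shown first are the microRNA that was overexpressed and its seed matches in these genes. The mature mouse miR-125a-5p of RefSeq lies on the plus strand at chr17:17830817-17830840 of GRCm38.p6, and capitals mark its seed, bases 2 to 8.
mmu-miR-125a-5p: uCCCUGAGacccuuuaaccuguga
A transcript that pairs with this seed holds CTCAGGG. Searched in the longest 3′ UTR annotated per gene, Ciita had 1 such match, at base 1653 of 2676, and H2-DMa had 2, at bases 75 and 1712 of 1862. The other 8 genes had no CTCAGGG, H2-Aa, H2-Ab1 and H2-Eb1 among them. The match is in capitals, with the bases around it from the mm10 transcripts.
Ciita, base 1653: gttaggaccttgggCTCAGGGtggcacat
H2-DMa, base 75: ctttgcagagtgggCTCAGGGacaggggg
H2-DMa, base 1712: agtcccagggatccCTCAGGGtgtgtgcc
Of 8725 tested genes with an annotated 3′ UTR, 1658 (19%) held CTCAGGG. Another form of seed match, TCAGGGA, lacks the first C and has an A at the end. Outside the matches shown, H2-Aa held 1 of this form and H2-DMa held 2, while H2-Ab1 and H2-Eb1 held 0. The share of all genes with this form was not counted. A match is a run of letters and not a measured site. The row of Mir125a itself had 0 and 1 counts in overexpressed replicates 2 and 3, and 0 in both endogenous libraries. Its host transcript Spaca6 had 2 and 2 counts with overexpression, against 1 and 1 with endogenous expression. The Mir125a row gives no check of the labels, since the kit copies polyadenylated RNA and a mature microRNA carries no poly(A) tail. The counts of Spaca6 are too few to give one.

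The promoters are shown because genes of the set with opposite values carry the same pair of motifs. From the RefSeq table of promoters (250 bases before to 50 after a start), 8 windows for 7 of the genes were searched, and none for H2-Ab1, Ciita or Cd74. A core of the X box (GCAAC) followed, 20 to 40 bases on and on the same strand, by the core of the Y box (ATTGG), start to start and searched on both strands, was present in 4 windows, those of H2-Aa, H2-Eb1, H2-Oa and H2-Ob. The same pair was in 336 of all 32851 windows (1.02%), the Y box core alone in 37.4% and the X box core alone in 35.2%. Only these exact bases were searched, so a pair with a different base in either core was not counted. The stretches around the pairs follow in the direction of transcription, on GRCm38.p6, with the cores in capitals (H2-Eb1 holds a further Y box core on the opposite strand).
H2-Aa, chr17:34287842-34287929, minus strand: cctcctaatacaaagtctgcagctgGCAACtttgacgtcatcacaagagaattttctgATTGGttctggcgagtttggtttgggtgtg
H2-Eb1, chr17:34305751-34305837, plus strand: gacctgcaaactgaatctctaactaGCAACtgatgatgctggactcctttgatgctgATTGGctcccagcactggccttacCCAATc
H2-Oa, chr17:34092278-34092365, plus strand: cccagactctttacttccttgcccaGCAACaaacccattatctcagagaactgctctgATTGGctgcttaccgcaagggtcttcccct
H2-Ob, chr17:34238793-34238877, plus strand: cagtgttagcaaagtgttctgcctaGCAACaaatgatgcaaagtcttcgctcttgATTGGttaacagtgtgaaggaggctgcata
The cores lie 33, 32, 33 and 30 bases apart in H2-Aa, H2-Eb1, H2-Oa and H2-Ob, and the Y box core begins 48, 59, 43 and 57 bases before the annotated start. The spacing was thus alike in H2-Aa and H2-Eb1, whose counts lay on opposite sides, while the distance to the start differed between them.

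The libraries were shallow and alike in size, with 737431 and 715930 counts in overexpressed replicates 2 and 3, and 654126 and 712311 in endogenous replicates 1 and 3. Overexpressed replicate 3 stood apart in its mitochondrial share, 0.558% of counts, against 6.29% in overexpressed replicate 2 and 4.14% and 4.22% in the endogenous libraries. A low signal covered most genes, so levels were set beside 1479 odorant, pheromone and trace-amine receptor genes, which serve smell and pheromone sensing. The 95th percentile of these receptor genes was 6.68 and 8.99 counts per kb of exon in the overexpressed libraries, and 8.86 and 10.4 in the endogenous libraries, and a gene over it in a library is called above background there. Of all protein-coding genes, 10.5% and 6.92% were above background in overexpressed replicates 2 and 3, against 7.06% and 7.41% in endogenous replicates 1 and 3. The labelled fraction was not clear from its own markers. Of 10 stem and progenitor genes, 1 and 0 were above background in overexpressed replicates 2 and 3, against 0 and 1 in endogenous replicates 1 and 3. By density averaged over the libraries, 0 passed the 95th percentile of receptor genes averaged in the same way. Ly6a, which encodes Sca-1, had 1 and 1 counts with overexpression, against 1 and 0 with endogenous expression.

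H2-Aa had more counts in each overexpressed library than in either endogenous library. It encodes the alpha chain partner of H2-Ab1, and lies on the minus strand of chromosome 17 at 34282744 to 34287823 (mm10). It had 96 and 801 counts in overexpressed replicates 2 and 3, against 7 and 9 in endogenous replicates 1 and 3. Both overexpressed libraries were above both endogenous ones, and replicate 3 held most of the counts. Per length this is 25.28 and 210.9 counts per kb with overexpression, against 1.843 and 2.37 with endogenous expression, so the gene was above background in both overexpressed libraries and in neither endogenous one. H2-Aa averaged 745.6 ± 801.2 CPM (counts scaled to effective library size) with overexpression and 12.72 ± 0.3436 CPM with endogenous expression (SD, n = 2 each). The fitted log2 fold, overexpressed over endogenous, was 5.85 ± 1.28 (SE). Leaving out overexpressed replicate 3, in which mitochondrial counts were few, gave 3.82. In RNA from sorted cells in bulk, fewer cells of a type and less RNA per cell cannot be told apart, here and for every gene that follows.

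H2-Ab1, the beta chain of the same molecule, had the opposite pattern. It lies next to H2-Aa on the plus strand, at chromosome 17 from 34257689 to 34269419. It had 3 and 3 counts in the overexpressed libraries, against 179 and 53 in the endogenous libraries. The groups did not overlap, and endogenous replicate 1 held most of the counts. Its density was 1.168 counts per kb in each overexpressed library, below background, against 69.7 and 20.64 with endogenous expression, above it. Mean levels were 5.256 ± 0.4832 CPM with overexpression and 197.7 ± 171.6 CPM with endogenous expression (SD, n = 2 each). The log2 fold was -5.18 ± 1.01 (SE), and -3.70 without endogenous replicate 1.

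H2-Eb1, the second beta chain, went the way of H2-Ab1. It lies on the plus strand beyond H2-Aa, at chromosome 17 from 34305867 to 34316674. Its counts were 1 and 4 with overexpression, against 37 and 23 with endogenous expression, and the groups did not overlap. The densities of 0.5144 and 2.058 counts per kb in the overexpressed libraries were below background, and the 19.03 and 11.83 of the endogenous libraries were above it. Levels averaged 4.209 ± 3.314 CPM with overexpression and 49.53 ± 23.2 CPM with endogenous expression (SD, n = 2 each). The log2 fold was -3.44 ± 0.68 (SE), from -4.56 without overexpressed replicate 3 to -2.77 without endogenous replicate 1. The partner alpha chain of H2-Eb1 is annotated as a pseudogene in the reference (H2-Ea-ps), with 0 and 2 counts under overexpression and 2 and 3 under endogenous expression.

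H2-Aa, H2-Ab1 and H2-Eb1 each reached the count filter through the group in which they were high, so their presence among the tested genes already required a difference. Of the 3, none shares exon sequence with an overlapping gene, and at most 0.514% of the stretches of 50 bases in their transcripts occur in another gene.

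Since H2-Aa and H2-Ab1 encode the chains of 1 protein, their balance can be read within a library, free of library scaling. H2-Aa made up 97% (91.4 to 99.4) and 99.6% (98.9 to 99.9) of the summed H2-Aa and H2-Ab1 counts in overexpressed replicates 2 and 3, against 3.76% (1.53 to 7.6) and 14.5% (6.86 to 25.8) in endogenous replicates 1 and 3. The intervals are exact Clopper-Pearson 95% intervals and cover counting error only, and reads without molecular identifiers are not independent molecules. By density the share was 95.6% and 99.4% with overexpression, against 2.58% and 10.3% with endogenous expression. No library had both chains above background: each library showed the alpha chain alone or the beta chains alone.

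**Figure D1:**
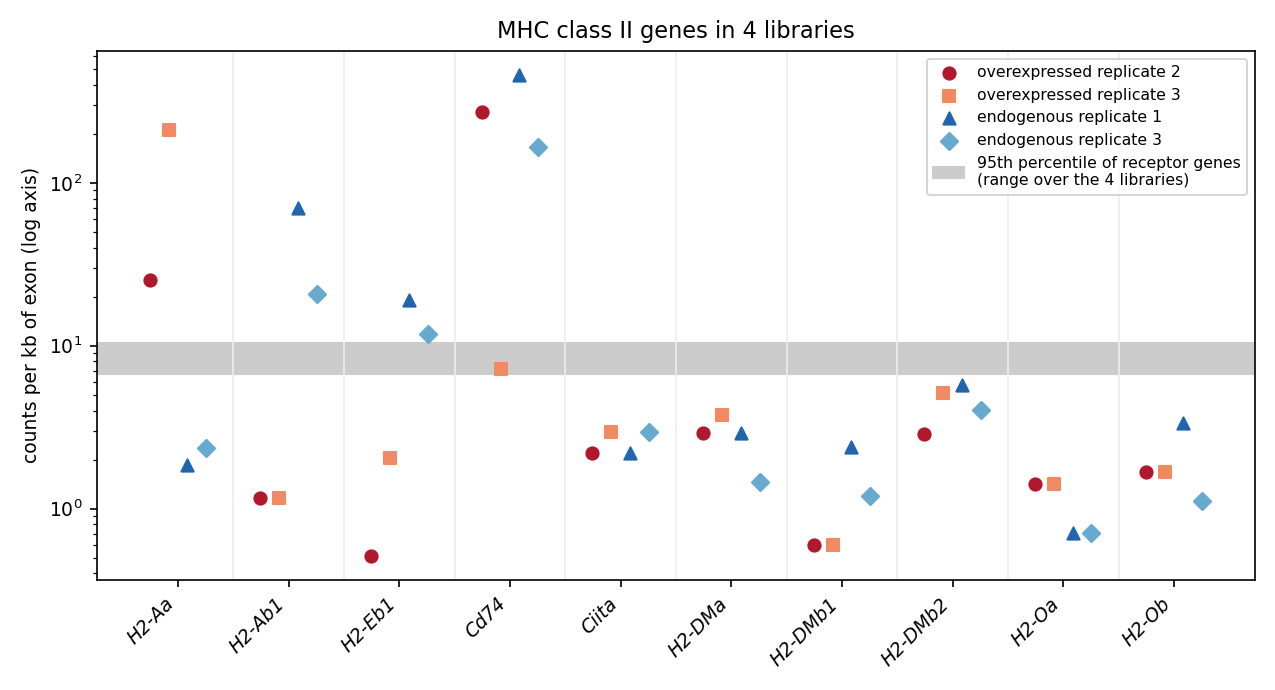
Counts per kb of exon (log axis) of the 10 MHC class II genes, 1 point per library, with the range over libraries of the 95th percentile of receptor genes as a grey band. H2-Aa sits above the band in both overexpressed libraries (25.28 and 210.9) and below it in both endogenous ones, H2-Ab1 and H2-Eb1 the other way round, and 6 genes lie below the band in every library.

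Cd74, the invariant chain that escorts new alpha and beta chains and also serves as a surface receptor for the cytokine MIF, had the highest density of the set when averaged over the 4 libraries. It had 458 and 12 counts in overexpressed replicates 2 and 3, against 772 and 277 in endogenous replicates 1 and 3. The groups overlapped, and overexpressed replicate 3 was far below the other 3 libraries. Its densities were 272.8 and 7.147 counts per kb with overexpression, against 459.8 and 165 with endogenous expression, above background in all libraries but overexpressed replicate 3. Means were 437.1 ± 590.4 CPM with overexpression and 887.3 ± 690.8 CPM with endogenous expression (SD, n = 2 each). The log2 fold of -1.02 ± 1.56 (SE) was smaller than its error. Without overexpressed replicate 2 it was -5.46, without overexpressed replicate 3 it was -0.05, and without endogenous replicate 1 it was 0.25, with the other sign.

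Cd74 differed 43.47-fold between the overexpressed libraries and 3.449-fold between the endogenous libraries. H2-Aa differed 7.325-fold between the overexpressed libraries and 1.039-fold between the endogenous ones, and H2-Ab1 1.139-fold and 4.18-fold. Spreads within a group were also measured over other genes. Of 1671 tested genes with a mean count of at least 50, 9.52% differed by more than 10-fold between the overexpressed libraries and 7.06% between the endogenous libraries (0.5 added to each count). Over all 10808 tested genes the shares were 3.08% with overexpression and 2.05% with endogenous expression. Overexpressed replicate 3, which had the least Cd74, had the most H2-Aa, so the invariant chain and the alpha chain were not high in the same overexpressed library.

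The summed counts of the 10 genes varied less than their make-up. They came to 606 and 882 with overexpression, or 1131 and 1445 CPM, against 1059 and 411 with endogenous expression, or 1887 and 591.9 CPM. The groups overlapped in this sum. Cd74 made up 75.58% of it in overexpressed replicate 2 and 1.361% in overexpressed replicate 3, against 72.9% and 67.4% in the endogenous libraries. H2-Aa made up 15.84% and 90.82% with overexpression, against 0.661% and 2.19% with endogenous expression. The beta chain H2-Ab1 made up 0.495% and 0.3401% with overexpression, against 16.9% and 12.9% with endogenous expression.

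**Figure D2:**
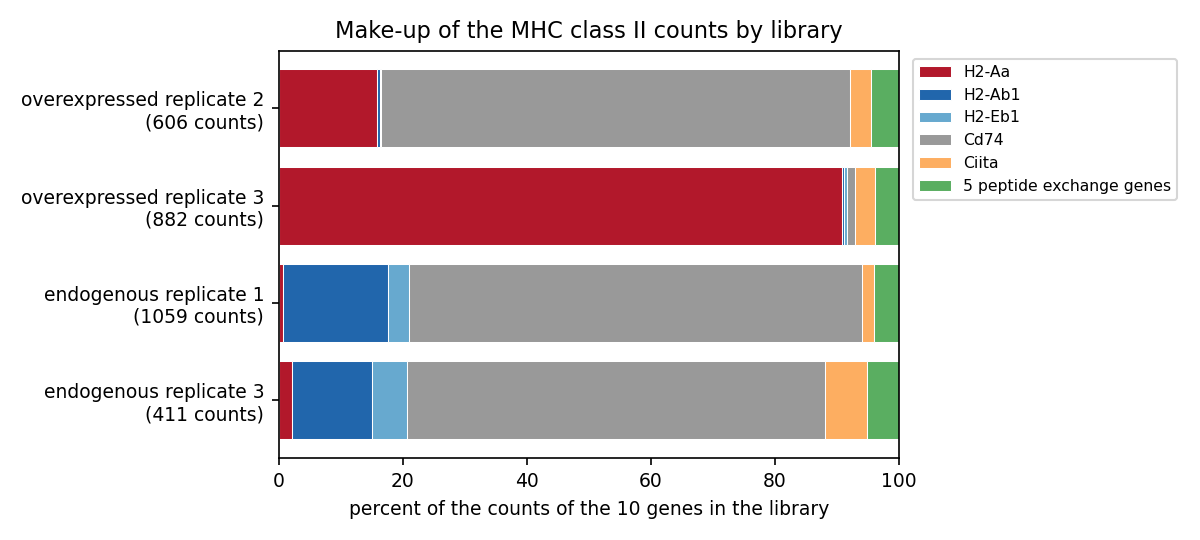
Percent of the summed counts of the 10 MHC class II genes held by each gene or gene group, 1 bar per library with the summed count in parentheses. H2-Aa takes 90.82% in overexpressed replicate 3, and Cd74 takes between 67.4% and 75.58% in each of the other 3 libraries.

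Ciita, the coactivator that acts as the master switch of class II transcription, had equal counts in the groups. They were 21 and 28 in overexpressed replicates 2 and 3, and 21 and 28 in endogenous replicates 1 and 3. At 2.202 and 2.937 counts per kb in either group, Ciita was below background in every library, so a difference in its transcript could not be read at this depth. Its log2 fold was 0.13 ± 0.41 (SE), and -0.15 with no composition scaling, a setting that moved the median of all genes to -0.29. Of its exons 329 bases overlap Dexi on the opposite strand, and the use of strand in counting is not given in the sources used here. The Ciita transcript holds a seed match for miR-125a-5p, shown above with its sequence. It lies on chromosome 16 from 10480059 to 10528418.

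The peptide exchange genes had few counts in every library, and none was above background in any. H2-DMa, the alpha chain of the exchange factor H2-DM, had 10 and 13 counts with overexpression, against 10 and 5 with endogenous expression. Its log2 fold was 0.71 ± 0.58 (SE), between 0.15 without endogenous replicate 3 and 1.56 without endogenous replicate 1. H2-DMa holds the 8mer among the seed matches shown above, and at these counts, below background in every library, a difference in its transcript could not be read. Of its exons 360 bases overlap Brd2 on the opposite strand.

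The beta chains of the exchange factor, H2-DMb1 and H2-DMb2, are close copies, and 22.7% of the 50-base stretches of H2-DMb1 occur in H2-DMb2, so their reads may be split. H2-DMb1 had 1 and 1 counts with overexpression, against 4 and 2 with endogenous expression, a scaled ratio of 0.3651 (exact 95% interval 0.03604 to 2.042). H2-DMb2 had 5 and 9 counts, against 10 and 7. The ratio of H2-DMb2 was 0.9019 (0.4116 to 1.944), and both intervals include a ratio of 1.

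H2-O, which restrains H2-DM, also had few counts. H2-Oa, its alpha chain, had 2 and 2 counts with overexpression, against 1 and 1 with endogenous expression, and its ratio of 2.19 had an interval of 0.3139 to 24.21. H2-Ob, its beta chain, had 9 and 9 counts, against 18 and 6, and a ratio of 0.8214 (0.42 to 1.579). A difference was not detectable for either at this depth. Their promoters carry the same motif pair as H2-Aa and H2-Eb1, shown above.

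Called genes give the background of these comparisons. By the edgeR quasi-likelihood F test, 0 of 10808 genes had an adjusted p under 0.05 (0%, with 566 at an unadjusted p under 0.05), and 0 of the 6 class II genes tested. With no filter on counts, 822 of 46089 genes were called (1.78%), and 3 of the 10 class II genes, H2-Aa, H2-Ab1 and H2-Eb1. By DESeq2, 151 of 4103 genes with an adjusted p were called (3.68%), and 2 of 4, H2-Aa and H2-Ab1. By the authors' deposited table, 404 of 17039 genes had an FDR under 0.05 (2.37%), and 3 of the 8 class II genes it lists, which are again H2-Aa, H2-Ab1 and H2-Eb1. Their log2 folds in the authors' deposited table were -5.87, 5.19 and 3.44, with a sign that runs endogenous over overexpressed. The CPM of the groups did not overlap for 4 of the 6 tested class II genes, H2-Aa, H2-Ab1, H2-Eb1 and H2-DMa, and for 3589 of all 10808 (33.2%). The set was picked on this contrast, so these counts say nothing further about it.

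Position on the chromosome was set beside these values, since 8 of the 10 genes lie in 1 stretch of chromosome 17, from H2-Oa at 34092340 to H2-Eb2, which ends at 34341412 (mm10). The stretch holds 14 protein-coding genes. H2-Aa lies between H2-Ab1 and H2-Eb1, so a gene with high counts under overexpression stands between a pair with low counts. The antisense transcript Gm20513, next to H2-Aa on its other side, had 1 and 2 counts with overexpression, against 3 and 3 with endogenous expression. H2-Eb2, a further beta chain gene beside H2-Eb1, had 12 and 6 counts, against 30 and 15 with endogenous expression, and its log2 fold was -1.21 ± 0.64 (SE, adjusted p = 0.845 by the edgeR test). H2-Ob, on the far side of H2-Ab1, overlapped between the groups.

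The class I pathway genes inside the stretch had values in both directions. The peptide transporter gene Tap1 had 8 and 0 counts with overexpression, against 5 and 53 with endogenous expression, and its partner Tap2 had 20 and 7, against 5 and 14. The immunoproteasome gene Psmb9 had 8 and 15 counts, against 8 and 10, and Psmb8 had 14 and 1, against 0 and 2. The chromatin reader gene Brd2, between H2-Oa and H2-DMa, had 8 and 3 counts with overexpression, against 9 and 11 with endogenous expression. Among these 5 genes a count of 50 was passed by Tap1 alone, in endogenous replicate 3.

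**Figure D3:**
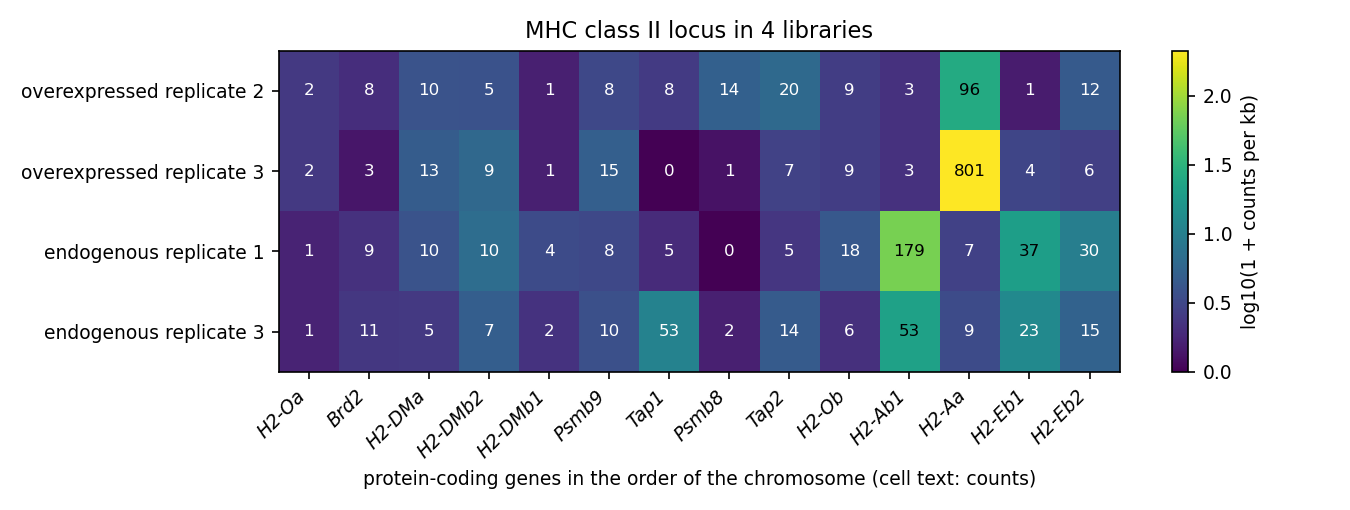
Counts (numbers in the cells) and log10(1 + counts per kb) (colour) of the 14 protein-coding genes of the class II stretch of chromosome 17, in chromosome order, 1 row per library. H2-Aa is bright in the overexpressed rows, with 96 and 801 counts, and its neighbours H2-Ab1 and H2-Eb1 are bright in the endogenous rows.

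The wider antigen presentation pathway was taken from 7 lists with 54 genes in the count table, of which 26 were tested. With overexpressed miR-125a 14 were higher and 12 lower, their median log2 fold was 0.30, and 0 had an adjusted p under 0.05 by the edgeR test, while 3 had an unadjusted p under 0.05. Over all genes 5365 were higher and 5443 lower, with a median of -0.01. DESeq2 called 1 of the 11 listed genes to which it gave an adjusted p, against 3.68% of all such genes, and the edgeR test with no count filter called 6 of 54, against 1.78% of all genes.

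The promoter-binding factors upstream of the class II genes showed 1 large value. The list of these factors held 8 genes, RFX subunits, NF-Y subunits and CREB-type factors, of which 4 were tested, 3 with higher and 1 with lower values (median 0.35). Nfyb, the NF-Y subunit that helps bind the Y box, had 16 and 24 counts with overexpression, against 564 and 32 with endogenous expression. The groups did not overlap, but endogenous replicate 1 held nearly all of the counts. Its log2 fold was -3.92 ± 1.47 (SE, adjusted p = 0.845 by edgeR), and it was the gene that DESeq2 called (adjusted p = 0.0352). Nfya, another subunit, had 11 and 11 counts, against 7 and 7 (0.77 ± 0.50, adjusted p = 0.864 by edgeR).

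Interferon gamma, the main inducer of Ciita outside professional antigen-presenting cells, acts through 6 listed genes of which 3 were tested, 1 higher and 2 lower (median -0.35). The receptor kinase gene Jak1 had 324 and 22 counts with overexpression, against 30 and 37 with endogenous expression. The groups overlapped, and overexpressed replicate 2 held most of the counts (log2 fold 2.58 ± 1.29, adjusted p = 0.845 by edgeR). Jak2 had 7 and 7 counts, against 10 and 14 (-0.63 ± 0.48, adjusted p = 0.894 by edgeR).

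Lysosomal processing, which trims antigens and cuts the invariant chain, held 10 listed genes, 5 of them tested, 2 higher and 3 lower (median -0.16). Ctsl, the protease cathepsin L, had 22 and 11 counts with overexpression, against 46 and 62 with endogenous expression, with no overlap (-1.54 ± 0.58, adjusted p = 0.845 by edgeR). Ifi30, the lysosomal thiol reductase that opens disulfide bonds of antigens, had 8 and 8 counts, against 69 and 13 (-2.31 ± 0.93, adjusted p = 0.845 by edgeR). Ifi30 was above background in overexpressed replicate 2, at 8.155 counts per kb, and in both endogenous libraries.

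Genes of class II turnover at the surface, class I presentation and costimulation had no call by edgeR with the filter. March1, a ligase that marks surface class II molecules for degradation, had 5 and 11 counts with overexpression, against 14 and 14 with endogenous expression. Its relative March8 had 13 and 23 counts with overexpression, against 11 and 20 with endogenous expression. Of the 18 class I genes 8 were tested, 6 higher and 2 lower (median 0.56). The class I heavy chain H2-D1 had 254 and 8 counts with overexpression, against 14 and 30 with endogenous expression (log2 fold 2.82 ± 1.50, adjusted p = 0.845 by edgeR), and the chaperone Pdia3 had 29 and 4, against 4 and 12. The groups overlapped in both. Of the costimulation genes 3 were tested, 1 higher and 2 lower (median -0.06), and Cd80, a ligand of CD28, had 6 and 12 counts, against 16 and 11, while Pdcd1lg2, a ligand of PD-1, had 15 and 8, against 6 and 10.

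**Figure D4:**
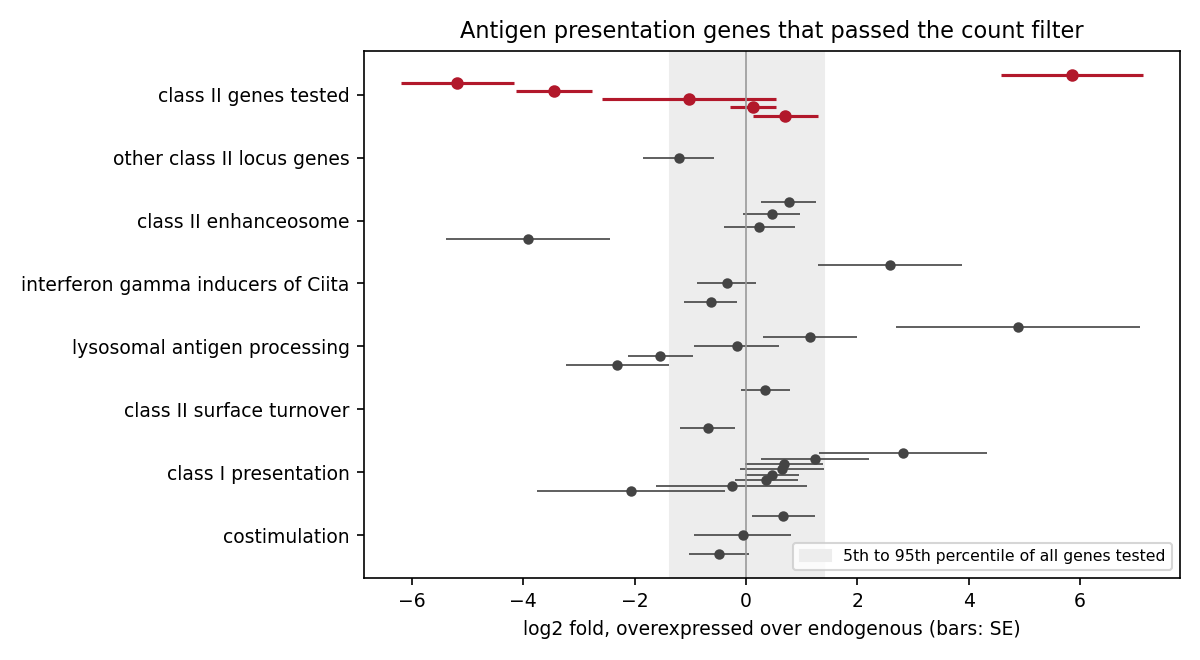
Log2 fold, overexpressed over endogenous, with SE bars, of the 6 class II genes tested (red) and of 26 tested genes of the antigen presentation lists (dark), with the 5th to 95th percentile of all tested genes (-1.36 to 1.40) in grey. H2-Aa lies far to the right at 5.85, H2-Ab1 and H2-Eb1 far to the left at -5.18 and -3.44, and the listed genes lie on both sides of 0.

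Markers of the cells that normally make class II molecules were set beside the class II genes. Their part in the class II values was not tested. B-lineage genes (12 listed) summed to 2569 and 345 counts with overexpression, against 703 and 360 with endogenous expression, and 4 and 2, against 6 and 3, were above background. The kappa light chain Igkc made up most of that sum in overexpressed replicate 2, with 2323 and 1 counts, against 96 and 92, and the B-cell receptor subunit Cd79a had 75 and 6, against 117 and 6. The library with the most H2-Aa, overexpressed replicate 3, thus had 1 count of Igkc, 6 of Cd79a and 12 of Cd74. Cd22 was at 0 in overexpressed replicate 2 and Vpreb3 at 0 in endogenous replicate 1.

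Plasmacytoid dendritic genes (8 listed) summed to 327 and 117 counts with overexpression, against 202 and 1071 with endogenous expression, and 4 and 0, against 2 and 3, were above background. Of the 7 tested, 4 had higher and 3 had lower values with overexpression (median log2 fold 0.45). The 2 densest genes were among the lower ones. Siglech, a surface lectin of these cells, had 50 and 11 counts, against 20 and 860, and Ly6d had 0 and 1, against 100 and 10. Ly6d, like H2-Ab1, was near 0 in both overexpressed libraries and highest in endogenous replicate 1. Spib was at 0 in overexpressed replicate 3 and endogenous replicate 1.

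Conventional dendritic genes (9 listed) summed to 323 and 142 counts with overexpression, against 130 and 135 with endogenous expression, with 2 and 0, against 1 and 0, above background. The cytokine receptor gene Flt3, also used by progenitors, made up 242 and 33 of these counts, against 56 and 37, and Irf4 had 36 and 40, against 32 and 29. Batf3, a factor of a subset of these cells, was at 0 in all libraries but overexpressed replicate 3, where it had 1 count. Overexpressed replicate 3, highest in H2-Aa, and endogenous replicate 3 had no conventional dendritic marker above background. Of all protein-coding genes, only 6.92% and 7.41% were above it in these libraries.

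Monocyte and macrophage genes (10 listed) summed to 319 and 153 counts with overexpression, against 116 and 412 with endogenous expression, with 5 and 1, against 0 and 2, above background. Lyz2, lysozyme, had 65 and 30 counts, against 0 and 159, and Ly6c2 had 116 and 2, against 12 and 107. C1qb, a complement subunit of macrophages, was at 0 in both endogenous libraries. None of these 4 lists had its highest sum in the library with the most H2-Aa.

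The markers of other cell types were given for the same reason. Neutrophil genes (8 listed) summed to 11564 and 7967 counts with overexpression, against 4840 and 6287 with endogenous expression. Ltf, a granule gene, held most of this sum and was higher in both overexpressed libraries (8490 and 7413, against 4538 and 3735). In each of the other neutrophil genes the groups overlapped, as in S100a8 with 739 and 205 counts, against 36 and 1130. Erythroid genes (8 listed) summed to 357 and 154 counts, against 388 and 2478. Stem and progenitor genes summed to 120 and 114, against 94 and 149, T-lineage genes (7 listed) to 36 and 37, against 26 and 54, and endothelial genes (5 listed) to 48 and 73, against 55 and 77. The part of these cells in the class II values was not tested.

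The genes most like H2-Aa and H2-Ab1 over the 4 libraries were found by the distance between centred log2 CPM profiles, a description over 4 points that share libraries and scaling. Nearest to H2-Aa were the annotated transcript Gm38266 (distance 1.36), with 19 and 105 counts under overexpression, against 1 and 3 under endogenous expression, the splicing factor gene Srsf11 (1.87), with 114 and 237, against 8 and 16, and D130019J16Rik (1.88), with 209 and 547, against 28 and 36. None of the 3 had as large a spread as H2-Aa between overexpressed replicates. Nearest to H2-Ab1 were Shoc2 (0.612), a scaffold of Ras signalling, with 3 and 4 counts under overexpression, against 281 and 47 under endogenous expression, the mitotic ubiquitin-conjugating enzyme gene Ube2c (0.772), with 5 and 3, against 157 and 35, and Fxr1 (0.809), an RNA-binding protein gene, with 6 and 8, against 177 and 60. No other class II gene was among the 3 nearest to H2-Aa or to H2-Ab1.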

How the data were processed

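Gene counts of RNA-seq libraries were analysed. Per the submitters' processing notes the tools were STAR, FastQC 0.11.8 and edgeR 3.24.3, on mm10. How reads were counted, and whether by strand, is not given in the sources used here. The authors deposited raw counts per gene, whose 55450 identifiers all matched GENCODE vM21. A second deposited table gives, per the file headers, the authors' log2 folds, log2 CPM means, p-values, FDR values, likelihood ratios and a score with a sign. The direction of its folds was read from the counts, since 10685 of 10808 shared genes had the opposite sign to overexpressed over endogenous.

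Counts were fitted over all genes with edgeR 4.0.16 in R 4.3.3 (filterByExpr with a minimum count of 10 and a total of 15, TMM factors, quasi-likelihood F test, Benjamini-Hochberg adjusted p under 0.05). The SE was taken from the fold and F (size of the log2 fold divided by the root of F), and CPM uses effective library sizes. The fit used 2 libraries per group in place of the 3 in the labels. DESeq2 1.42.0, other scalings, no filter and leaving out each library were alternatives. Ratios of summed counts with exact binomial 95% intervals were used for untested genes. Densities are counts per kb of the union of exons. The 10 genes, the 7 pathway lists and the 9 marker lists were chosen with earlier results of these data known. All 10 genes are named, as are the 2 genes of each pathway list with the smallest p. Of each list for class II-bearing cells, the 2 genes with the highest density are named. The 5 other marker lists are given by their sums, with the 2 densest neutrophil genes named. The 3 genes nearest to H2-Aa and to H2-Ab1 are also named.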

Additional observations from a re-analysis of the deposited data

How the results depend on the processing

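Over all genes the count called was 0 by the edgeR test, 822 with no count filter, 151 by DESeq2 and 0 with size factors, with no composition scaling, with the current dispersions and without any 1 library (0 to 0). In the antigen presentation lists it was 0, against 6 with no filter, 1 by DESeq2 and 0 under the same other settings (0 to 0 without any 1 library). Log2 folds of the class II genes over 10 settings ran from 3.82 to 6.71 for H2-Aa, -5.88 to -3.70 for H2-Ab1, -4.56 to -2.77 for H2-Eb1, -5.46 to 0.25 for Cd74, -0.15 to 0.28 for Ciita and 0.15 to 1.56 for H2-DMa, and the ends came from leaving out 1 library, except the low end for Ciita, which came from no composition scaling. The H2-Aa share by density or by counts stayed within its counting interval. With the longest transcript in place of all exons, mean densities were 4.079 for Ciita, 4.738 for H2-DMa and 3.933 for H2-Ob, in counts per kb. No paired analysis was possible because the analysed libraries of the groups share 1 replicate number, 3. Depth limits the peptide exchange genes and Ciita, which lay below the receptor background in every library, and with n = 2 per group the spread of H2-Aa, H2-Ab1 and Cd74 rests on single libraries.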

Other observations

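Several genes that process antigens had nearly all of their counts in 1 library, and these were chosen after their values were seen. The protease gene Ctss, cathepsin S, which makes the last cuts in the invariant chain, had 565 and 2 counts in overexpressed replicates 2 and 3, against 6 and 17 in endogenous replicates 1 and 3. Ctsh, cathepsin H, had 1 and 4 counts with overexpression, against 456 and 4 with endogenous expression, and Canx, the chaperone calnexin, had 71 and 8, against 10 and 410. B2m, the light chain of class I molecules, had 400 and 16 counts, against 271 and 306, and so was lowest in overexpressed replicate 3, as Cd74 was. Of the class I heavy chains, H2-K1 had 690 and 378 counts, against 277 and 502, and did not share that low value. H2-D1, with 254 and 8 counts, against 14 and 30, was also lowest in overexpressed replicate 3.

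Of genes with a mean count of at least 20, 521 of 5323 (9.79%) had over 75% of their CPM in 1 library. Among the other antigen presentation genes this held for 6 of 14 (42.9%), namely Ctss, Jak1, Ctsh, Nfyb, Canx and H2-D1. Among the class II genes it held for H2-Aa and H2-Ab1, 2 of 4. A gene such as Ctsh passes the limit on mean count only through its 1 high library. The class II genes and the lists were also chosen with earlier results known, so nothing is read from these shares. Without a count filter the edgeR test called Ctss, Ctsd and Ctsz higher and Ctsh, Nfyb and Tap1 lower. Ctsd, cathepsin D, had 10 and 43 counts with overexpression, against 2 and 5 with endogenous expression, and Ctsz, cathepsin Z, had 1 and 34, against 3 and 2.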
